A study of Bos taurus with 48 samples.

Results

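The RNA of 9 adipocyte marker genes was followed in longissimus dorsi muscle biopsies of cattle. The genes were ADIPOQ, PLIN, FABP4, CIDEC, CIDEA, LEP, LPL, PPARG and CEBPA, and a probe belonged to the set when the array annotation named it by one of these symbols or its older name. This gave 10 probes of the 21475 on the array, or 9 genes of 19721, because CEBPA had 2 probes. A filter on low intensities kept 8 of the 9 genes and 14653 genes in all, and LEP did not pass it. The 48 two-colour arrays (96 channels) held total RNA of 35 animals, counted by their codes. Piedmontese × Hereford (PxH) and Wagyu × Hereford (WxH) cattle were sampled at 60, 135 and 195 days of gestation, at birth and at 3, 7, 12, 20, 25 and 30 months of age, the labels naming the Piedmontese and Wagyu side and the study's methods the crosses. Belmont Red cattle were sampled on a weight loss diet (restricted) or a weight growth diet at times 0, 1 and 2, which the labels give without a duration or an age. At each post-natal age of the crosses there were 4 animals per cross, mostly the same ones at every age, except for 2 WxH animals at 12 months. The fetal stages had 1 animal per cross at 60 days, 3 PxH and 2 WxH at 135 days, 2 PxH and 3 WxH at 195 days, and 3 per cross at birth. The diet groups had 4 restricted and 4 growth animals at time 0, 3 and 4 at time 1, and 2 and 2 at time 2. A code of 2 letters and a number, as in the labels, names an animal. The 2 PxH codes at 195 days, GP041A and GP041B, share their number, and they were counted as separate animals although the labels do not say so.

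Adipocytes store triglyceride in a lipid droplet, and those lying between the muscle fibres form the marbling fat of beef. Their differentiation runs through the nuclear receptor PPARG and the bZIP factor CEBPA, which maintain the genes of lipid uptake, storage and secretion in the mature cell. Wagyu cattle are known for heavy marbling, whereas Piedmontese cattle are lean and heavily muscled. A biopsy mixes muscle fibres with adipocytes, fibroblasts, vessels and blood, and in such bulk RNA fewer cells of a type and less RNA per cell cannot be told apart.

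The probes of the 6 genes whose RNA changed with age in at least 1 cross are shown by the first 30 of their 60 bases, written in the order and letters of the deposited annotation without capitals marking any part. They are shown because they fix what each name stands for, and because the CEBPA pair differs in base composition and in behaviour.
ADIPOQ: gcagagctaatagcatctgtataaatatag
PLIN: agccacatagtaagtgcttcataatataga
FABP4: aatggatgacgtttgcatcgaactccatga
CIDEC: atcccaaatgctcctgagtgaaccatcaac
CIDEA: aggatccaggggctgcacagtgccttccgc
CEBPA A_73_117799: gagggcggctttggttctcttctttgggga
CEBPA A_73_109326: ttcggctttccccggggcgcgggcccctcg
Over all 60 bases, CEBPA A_73_109326 was 83.3% G and C and CEBPA A_73_117799 was 45%. The other shown probes ran from 31.7% (PLIN) to 55% (CIDEA). PLIN is the older symbol of PLIN1, and its probe was found through its gene number in the array annotation. ADIPOQ, CIDEC and CIDEA were named by a symbol in the probe description.

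Values are log2 intensities after background correction and normalization, on which a difference of 1 is a doubling, and they compare samples for a probe, never probes with each other. Between 51.1% and 78.9% of probes were well above background in a channel (median 68%). CIDEA, LPL, PPARG and both CEBPA probes were well above background in 96 of 96 channels, PLIN and FABP4 in 92, CIDEC in 88, ADIPOQ in 73 and LEP in 7. The summed level of 7 muscle fibre genes was 19.25 to 20.00 in the 46 post-natal samples of the crosses (1 value per animal and age), so the labelled tissue's own genes were strong in all of them.

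The library of fetus GP672 (PxH, 135 days) went against its label as muscle. Its summed muscle fibre level was 13.67, where the other 4 fetuses of that age lay between 18.46 and 18.99. All 7 muscle fibre genes were below the range of those 4, and the difference from their mean was −7.10 for ACTA1 (skeletal alpha actin), −6.46 for MYH7 (slow myosin heavy chain) and −3.10 for DES (desmin). Adipocyte markers stood far above: FABP4 was at 16.62 in GP672 and at 8.97 to 11.70 in the other 4, and CIDEC was at 15.10 against 8.49 to 11.27. PPARG was at 13.07 against 8.15 to 8.80. CEBPA A_73_117799 was at 16.73 against 11.28 to 12.27, while CEBPA A_73_109326 was at 14.91 and inside the range of 13.97 to 15.16. Fibroblast and endothelial genes of this library differed by at most 1.19 from that mean. The comparisons of birth with 135 days are therefore given with and without GP672.

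**Figure D1:**
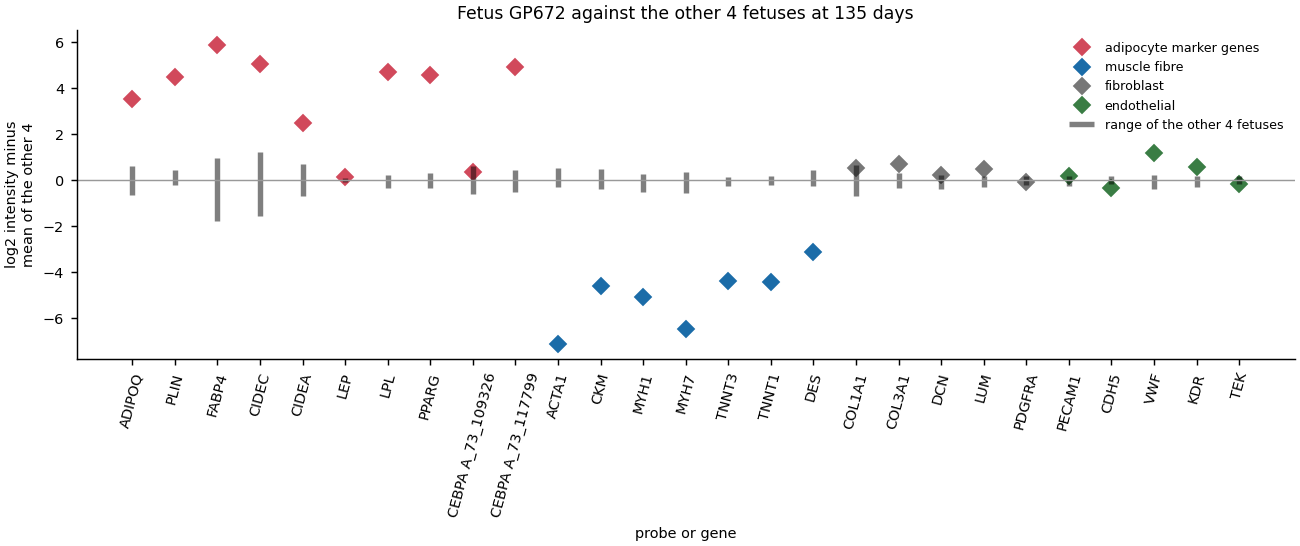
The level of each probe or gene in fetus GP672 (diamonds, coloured by gene list) minus the mean of the other 4 fetuses at 135 days of gestation, in log2 units, with the range of those 4 as grey bars. The 7 muscle fibre genes lie at −7.10 to −3.10, below the other fetuses, and 8 of the 10 adipocyte marker probes lie 2.47 to 5.87 above them.

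Adipocyte markers were already measurable in mid gestation and lower at birth. At 60 days CIDEC was at 6.69 in the PxH and 6.81 in the WxH fetus, not well above background in any channel, and ADIPOQ was at 6.71 and 6.67, also below it. At 135 days the 2 WxH fetuses had CIDEC, a protein that fuses lipid droplets, at 10.01 and 11.27. Their mean was at least 14.3-fold above the background bound at 60 days. ADIPOQ was at 8.09 and 6.85 in the same fetuses, with a mean at least 1.74-fold above its bound. With 1 animal per cross at 60 days these differences carry no test.

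At birth, CIDEC was at 7.49, 6.93 and 8.26 in PxH and at 8.16, 6.89 and 8.72 in WxH calves. The 2 PxH fetuses at 135 days other than GP672 had 8.49 and 10.45. The calves thus overlapped only the lowest fetus. The 195-day fetuses, with 7.43 and 7.28 in PxH and 8.80, 8.54 and 7.37 in WxH, lay mostly within the range of the calves. Over both crosses CIDEC fell by 3.25 ± 0.83 (SE) from 135 days to birth (limma, adjusted p = 0.00201), and by 2.22 ± 0.48 without GP672 (adjusted p = 0.000477), a 4.65-fold lower level. At birth CIDEC was well above background in 2 of 3 channels of each cross.

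FABP4, a fatty acid carrier of the adipocyte cytoplasm, spread widely at birth. It was at 8.28, 7.15 and 9.69 in PxH and 10.04, 7.11 and 10.51 in WxH calves, against 8.97 and 11.33 (PxH) and 11.70 and 11.00 (WxH) in the 4 fetuses other than GP672. At birth it was well above background in 2 of 3 channels of each cross. It fell by 3.03 ± 1.01 with GP672 (adjusted p = 0.0128) and by 1.85 ± 0.66 without it (adjusted p = 0.0185). PLIN, the coat protein of the droplet, was at 7.20 to 7.62 in the 6 calves, below all 5 fetuses at 135 days, whose lowest was 7.82. Its fall was 1.40 with GP672 (adjusted p = 0.0319) and 0.61 without (adjusted p = 0.00224). CIDEA, a droplet protein of the same family as CIDEC, fell by 1.57 (adjusted p = 0.00118), or by 1.12 without GP672 (adjusted p = 0.00037). ADIPOQ, the adipokine adiponectin, was at 6.66 to 7.00 at birth, when 0 of 3 PxH and 1 of 3 WxH channels were well above background. In PxH its mean at 135 days was at least 3.79-fold above the background bound at birth, or at least 1.68-fold without GP672. Its fitted differences of −1.27 (adjusted p = 0.0186) and, without GP672, −0.68 (adjusted p = 0.0127) are against a level mostly at background and give no exact size.

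LPL, the lipase that frees fatty acids from circulating lipoproteins and is made by muscle as well as fat, moved the other way. It was at 9.56 and 9.77 (PxH) and 9.87 and 9.29 (WxH) at 135 days and at 14.33 in GP672. At 195 days it was at 9.61 to 10.62. The calves at birth had 12.89, 12.40 and 12.17 (PxH) and 11.82, 11.89 and 11.95 (WxH). All 6 calves were above the 4 other fetuses and below GP672. LPL rose by 1.83 ± 0.51 with GP672 (adjusted p = 0.00361) and by 2.52 ± 0.19 without it (adjusted p = 2.02e-09).

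Counted over the 8 tested genes, 6 were lower at birth than at 135 days and 1 was higher, where 33.3% of all genes tested were lower and 37.1% higher. Without GP672, 5 were lower and 1 higher, against 33.5% and 36.9% of all genes. In this fit CEBPA, as the mean of its probes, was called with GP672 (−0.83, adjusted p = 0.044) and not without it (−0.36, adjusted p = 0.0595). Its probes disagreed with GP672 included. CEBPA A_73_117799 was lower at birth by limma (−1.86, adjusted p = 0.0116) and CEBPA A_73_109326 differed by 0.21 (adjusted p = 0.48). PPARG passed the test neither way (−0.89, adjusted p = 0.132, and −0.14, adjusted p = 0.245). Within the 2 slides that did not hold GP672, birth minus 135 days was −1.42 and −1.52 for CIDEC, −1.17 and −0.90 for FABP4, and 2.64 and 2.58 for LPL. With slide as a block instead, 3 of the 8 genes passed, beside 10461 of all 14653 genes in either direction. When GP672 was left out as well, 7 of the 8 did, beside 10750 of all, and CEBPA was among the 7 (−0.39, limma adjusted p = 0.046). In PxH alone 4 of 8 passed, beside 8413 of all, or 7781 without GP672. Without GP672, which left 2 PxH fetuses, 2 passed there, CIDEA (−1.13, adjusted p = 0.0255) and LPL (2.45, adjusted p = 0.000189), while CIDEC gave −1.38 (adjusted p = 0.201) and FABP4 −1.43 (adjusted p = 0.291).

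Markers of other cells also differed between birth and 135 days. All 5 fibroblast genes were lower at birth with and without GP672, with summed levels of 13.80 to 14.93 against 17.21 to 17.50 in the fetuses other than GP672. Of 5 endothelial genes 4 were lower and 1 higher, or 3 and 1 without GP672, with summed levels of 12.71 to 13.07 against 13.63 to 13.73. Of 7 muscle fibre genes 5 were higher and 0 lower by limma, or 5 and 1 without GP672, with summed levels of 19.35 to 19.67 against 18.46 to 18.99. The part of these shifts in the adipocyte marker differences was not tested.

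From birth to 3 months, limma called 0 of the 8 genes in either direction, where it called 43.5% of all genes, and 1 member had an unadjusted p under 0.05. CIDEC differed most, by 1.66 (adjusted p = 0.0747). Birth and 3 months were sampled from different animals and lay on different slides, so age and slide cannot be told apart there.

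**Figure D2:**
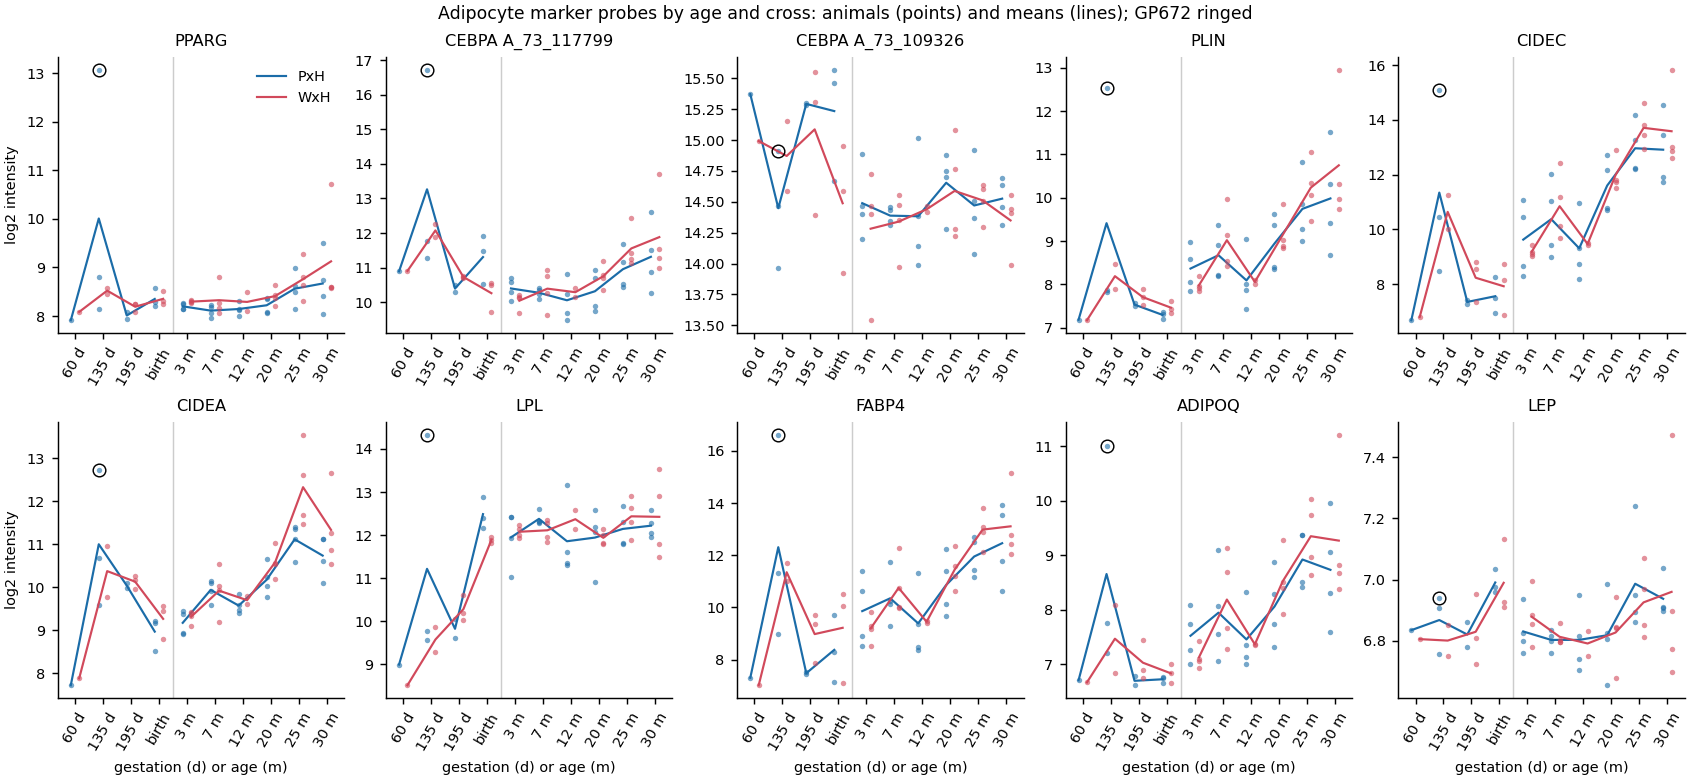
Log2 intensity of each of the 10 probes at 60, 135 and 195 days of gestation (d), birth and 3 to 30 months (m) in PxH (blue) and WxH (red) cattle, with 1 point per animal, lines through the group means and fetus GP672 ringed. ADIPOQ, PLIN, FABP4, CIDEC and CIDEA climb from 3 to 25 or 30 months in both crosses with a lower point at 12 months, LPL stays between group means of 11.86 and 12.44, and CEBPA A_73_109326 stays between 14.28 and 14.65 after birth.

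The question after birth was how the markers of marbling fat changed as the same animals grew from 3 to 30 months in each cross. In PxH cattle 6 of the 8 genes were higher at 30 than at 3 months, where 11.2% of all genes were, and in WxH cattle 6 of 8 were higher, where 11.9% of all genes were. The 6 were the same in both crosses: ADIPOQ, PLIN, FABP4, CIDEC, CIDEA and CEBPA. The median change of the 8 genes was 1.39 in PxH and 2.08 in WxH, against −0.01 over all genes in each cross. By 20 months, 2 of the 8 had risen in PxH (6.35% of all genes) and 4 of 8 in WxH (6.26%). Each comparison was made within animals, with the animal as a block.

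CIDEC changed most. At 3 months it was at 11.07, 8.68, 10.47 and 8.31 in the PxH animals GP112, GP130, GP201 and GP285, and at 30 months the same animals had 11.92, 13.45, 14.54 and 11.74. Every PxH value at 30 months was above every value at 3 months. In WxH, animals GW245, GW169, GW179 and GW212 had 9.19, 9.02, 9.09 and 9.44 at 3 months and 12.62, 12.87, 15.84 and 13.01 at 30 months. The WxH calves started within a narrow range and did not overlap their later values, among which GW179 was the highest by far. The rise was 3.28 ± 0.49 (SE) in PxH, 9.73-fold (adjusted p = 0.000221), and 4.40 ± 0.47 in WxH, 21.1-fold (adjusted p = 1.8e-05). At 20 months CIDEC had already risen by 1.97 in PxH (adjusted p = 0.0148) and by 2.81 in WxH (adjusted p = 0.00145).

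FABP4 followed CIDEC closely. In PxH it was at 11.39, 8.89, 10.64 and 8.51 at 3 months and at 11.78, 13.54, 13.91 and 10.61 at 30 months, in the order GP112, GP130, GP201 and GP285. These ranges overlapped, although each animal was higher at 30 months than at 3, by 0.39 (GP112) to 4.65 (GP130). In WxH it was at 8.51, 9.17, 9.28 and 9.82 at 3 months and at 12.06, 12.77, 15.15 and 12.44 at 30 months, in the order GW245, GW169, GW179 and GW212, without overlap. FABP4 rose by 2.60 ± 0.56 in PxH (6.07-fold, adjusted p = 0.00332) and by 3.91 ± 0.41 in WxH (15.1-fold, adjusted p = 1.74e-05). Its rise by 20 months passed the test in WxH (2.25, adjusted p = 0.00269), and the PxH difference was 1.00 (adjusted p = 0.271).

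PLIN, which guards the stored triglyceride against lipases, was at 8.98, 8.05, 8.59 and 7.85 in PxH at 3 months and at 9.41, 10.33, 11.53 and 8.67 at 30 months. Only the lowest value at 30 months (GP285) lay within the earlier range. WxH animals had 7.92, 7.97, 7.84 and 8.19 at 3 months and 9.75, 9.97, 12.96 and 10.32 at 30 months, again with GW179 highest and no overlap. PLIN rose 3.07-fold in PxH (1.62 ± 0.37, adjusted p = 0.00545) and 6.82-fold in WxH (2.77 ± 0.41, adjusted p = 0.000236). At 20 months the differences of 0.58 (adjusted p = 0.355) and 1.17 (adjusted p = 0.0756) did not pass.

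CIDEA was the only member whose values at 3 months lay apart from those at both 20 and 30 months in both crosses. PxH animals had 8.92, 9.45, 9.39 and 8.94 at 3 months and 10.10, 11.14, 11.12 and 10.61 at 30 months. WxH animals had 9.42, 9.35, 9.41 and 9.09 at 3 months and 10.88, 11.26, 12.67 and 10.55 at 30 months. The ages did not overlap in either cross, nor did 3 and 20 months. CIDEA rose by 1.56 ± 0.19 in PxH (adjusted p = 3.31e-05) and by 2.02 ± 0.28 in WxH (adjusted p = 0.000124), with 1.00 (adjusted p = 0.00234) and 1.26 (adjusted p = 0.00802) of this present at 20 months.

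ADIPOQ was near background at 3 months, when 3 of 4 PxH and 2 of 4 WxH channels were well above it. The PxH animals had 8.09, 7.00, 7.74 and 7.27 at 3 months and 8.32, 9.07, 9.96 and 7.59 at 30 months. The WxH animals had 6.93, 7.05, 7.10 and 7.42 and then 8.38, 8.67, 11.22 and 8.82. PxH ages overlapped and WxH ages did not. ADIPOQ rose by 1.21 ± 0.38 in PxH (adjusted p = 0.0311) and by 2.15 ± 0.43 in WxH (adjusted p = 0.00244). A separate probe annotated as ACRP30, another name of adiponectin, lay outside the naming rule and gave 1.57 (adjusted p = 0.00939) and 2.71 (adjusted p = 0.000485).

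The 2 regulators of adipocyte differentiation changed less. CEBPA, as the mean of its probes, rose by 0.48 ± 0.14 in PxH (adjusted p = 0.0256) and by 0.95 ± 0.19 in WxH (adjusted p = 0.00187), and its probes disagreed. CEBPA A_73_117799 was at 10.68, 10.29, 10.59 and 10.02 in PxH at 3 months and at 10.89, 11.50, 12.59 and 10.26 at 30 months, overlapping. In WxH it was at 10.15, 10.12, 10.19 and 9.69 and then at 11.00, 11.29, 13.70 and 11.54, without overlap. It rose by 0.92 (adjusted p = 0.0267) and 1.84 (adjusted p = 0.00184). CEBPA A_73_109326, the probe of 83.3% G and C printed last in the list of probes, differed by 0.04 (adjusted p = 0.918) and 0.07 (adjusted p = 0.82) only. PPARG was at 8.14 to 8.27 in PxH and 8.26 to 8.33 in WxH at 3 months. At 30 months it was at 8.41, 8.73, 9.50 and 8.04 in PxH and at 8.61, 8.59, 10.71 and 8.60 in WxH, where GW179 alone was above 8.61. The differences of 0.47 (adjusted p = 0.0831) and 0.83 (adjusted p = 0.0532) did not pass the test.

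LPL showed no such pattern. Its means at 3 and 30 months were 11.95 ± 0.65 (SD, n = 4) and 12.22 ± 0.29 in PxH and 12.08 ± 0.14 and 12.43 ± 0.96 in WxH. The ages overlapped in both crosses. Its differences of 0.27 (95% interval −0.43 to 0.98, adjusted p = 0.613) and 0.35 (−0.27 to 0.97, adjusted p = 0.428) did not pass. LEP, the adipokine leptin, lay between 6.65 and 7.47 in every post-natal animal, and the highest value was again GW179 at 30 months. Its probe was well above background in 1 of the 4 WxH channels at 30 months and in none at 3 months, a bound of at least 1.06-fold, and it was not tested.

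**Figure D3:**
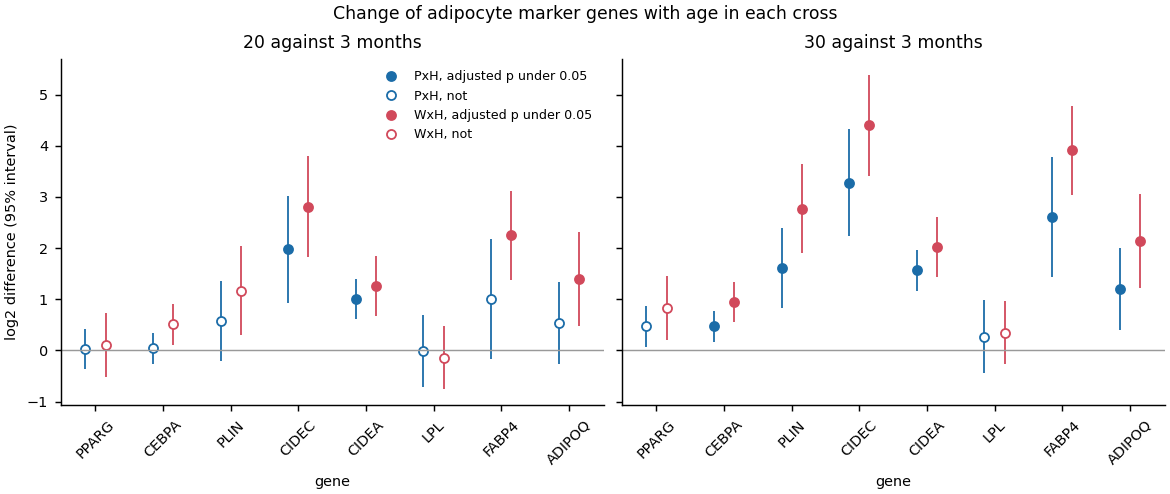
Log2 difference of each tested gene between 20 and 3 months (left) and 30 and 3 months (right) in PxH (blue) and WxH (red), with its 95% interval and filled points where the adjusted p was under 0.05. At 30 months the same 6 genes are filled in both crosses, CIDEC and FABP4 are the largest in each, and LPL and PPARG are open.

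Between these ages the rise was not steady. CIDEC was lower at 12 than at 7 months in 3 of 3 PxH and 2 of 2 WxH animals sampled at both, and FABP4, PLIN and CIDEA were too. From 12 to 20 months these 4 genes were higher in 4 of 4 PxH and 2 of 2 WxH animals. From 20 to 25 months, ages that lay on different slides, ADIPOQ, PLIN, FABP4, CIDEC and CIDEA were higher in 4 of 4 animals of each cross. From 25 to 30 months the animals no longer moved together. CIDEA was then lower in 4 of 4 WxH animals, with a mean change of −0.99, and higher in 1 of 4 PxH animals (mean change −0.38). ADIPOQ was higher in 1 of 4 animals of each cross, CIDEC in 2 of 4 PxH and 1 of 4 WxH animals, and PLIN in 2 of 4 of each. These steps were not tested. The lowest group mean of CIDEC, FABP4, PLIN, ADIPOQ and CEBPA A_73_117799 over the 12 post-natal conditions was WxH at 3 months, and the highest was WxH at 25 or 30 months. When the 12 conditions were put in order of a probe's mean, neighbouring conditions overlapped in their animals at every step and for every probe. Over these 12 means, which share animals and slides, 7 probes (ADIPOQ, PLIN, FABP4, CIDEC, CIDEA, PPARG and CEBPA A_73_117799) correlated with each other at r of 0.80 to 0.99. The 7 were grouped apart from the probes that followed less, so this range describes the choice and is not a test. LPL correlated with the 7 at 0.43 to 0.57 and CEBPA A_73_109326 at −0.02 to 0.38. LEP, near background, did so at 0.71 (CIDEA) to 0.82 (PPARG).

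The number of genes called rested on few animals, at 30 months in PxH above all. Without 1 animal in turn, the PxH difference between 30 and 3 months was 2.85 to 3.95 for CIDEC, 1.91 to 3.28 for FABP4 and 0.87 to 1.56 for ADIPOQ. In PxH, the number of genes higher at 30 months was 2 of 8 without GP130, 3 without GP201, 5 without GP285 and 6 without GP112. Over all 14653 genes, calls in either direction were then 1455, 2269, 1776 and 2296, against 3154 in the main fit. In WxH 6 of the 8 were higher without any 1 animal, beside 1529 to 2705 of all genes. At 20 months the number fell from 2 to 1 in PxH without GP130, GP201 or GP285, beside 558, 1488 and 923 of all genes. In WxH it fell from 4 to 2 without GW169 or GW212, beside 552 and 453 of all genes. Without the animal block, 1 and 2 genes passed at 20 months in PxH and WxH, beside 995 and 974 of all genes. The ages of 3 to 20 months shared slides within an animal, whereas 25 and 30 months were on other slides, so age and slide cannot be told apart there.

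The crosses were compared with 1 value per animal averaged over its post-natal ages (5 PxH against 4 WxH animals), and within the arrays that carried an animal of each. Averaged over ages, limma called 0 of the 8 genes and 0% of all genes (714 genes and 0 members had an unadjusted p under 0.05). The differences, WxH minus PxH, ran from 0.04 (LPL, 95% interval −0.39 to 0.46) to 0.34 (CIDEA, −0.14 to 0.82). With the crosses paired by array, and the pair of animals as a random block, limma called 510 of 14653 genes and 1 member, CIDEA. It was 0.42 higher in WxH (adjusted p = 0.0415). The same animals recur on the arrays of that fit, which are therefore not independent by animal, and the fit with 1 value per animal did not call CIDEA. At 30 months, limma called 0 of 8 members and 0.0341% of all genes, and 3 members had an unadjusted p under 0.05. WxH was higher on 3 of 4 arrays for ADIPOQ, PLIN, FABP4, CIDEC, CIDEA and PPARG, and on 2 of 4 for LPL and CEBPA (mean of its probes). The array with WxH lower was that of GW169 and GP130 for ADIPOQ, PLIN, FABP4, CIDEC and PPARG. These tallies repeat the same 4 arrays and are not separate results, and the share over all genes is not given. PLIN was 0.75 higher (95% interval 0.10 to 1.39, adjusted p = 0.441), CIDEA 0.61 (0.14 to 1.08, adjusted p = 0.36) and PPARG 0.46 (0.13 to 0.78, adjusted p = 0.327).

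Whether WxH cattle rose more than PxH cattle was tested as a difference of changes. For the change from 3 to 20 months limma called 0 of 8 members and 0.0136% of all genes, with 2 members at an unadjusted p under 0.05. For the change from 3 to 30 months it called 0 of 8 and 0% (808 genes and 3 members at an unadjusted p under 0.05). The WxH change to 30 months exceeded the PxH change by 1.15 for PLIN (95% interval 0.30 to 2.00, adjusted p = 0.723), by 0.93 for ADIPOQ (0.16 to 1.71, adjusted p = 0.781) and by 1.12 for CIDEC (−0.03 to 2.27, adjusted p = 0.921). The median of this excess was 0.71 over the 8 genes and −0.005 over all genes, and LPL had the least of the 8 with 0.07 (−0.88 to 1.02). The 8 genes were measured in the same animals, so their common direction is not a set of separate results.

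**Figure D4:**
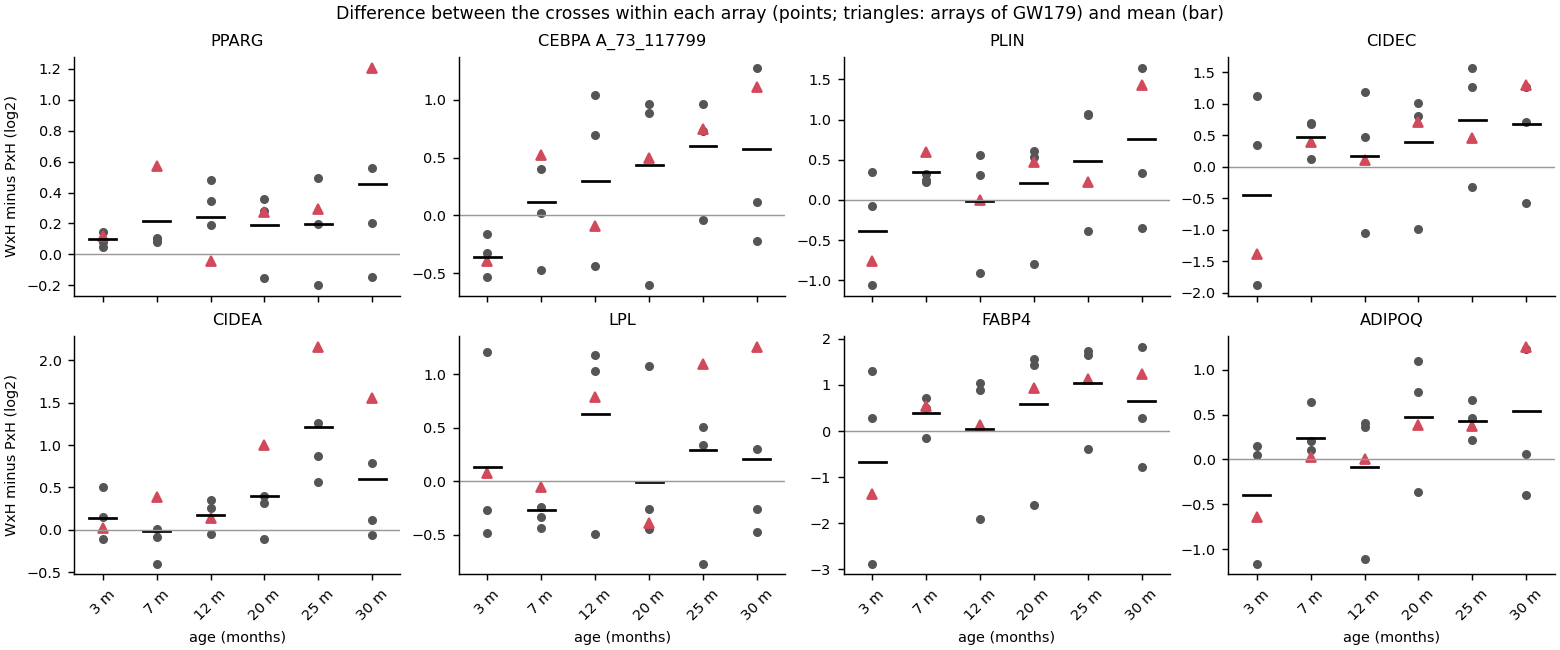
WxH minus PxH log2 difference on each array of the post-natal ages (points, with triangles for arrays of GW179) and its mean (bar) for 8 probes. For most probes 3 of the 4 arrays at 30 months lie above 0 and 1 below, and the arrays of an age spread over more than 1 log2 unit for CIDEC, FABP4 and PLIN at most ages.

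Other genes of fat metabolism were taken from lists chosen with earlier results of these data known. Their counts stand beside the 11.2% of all genes higher at 30 than at 3 months in PxH and 11.9% in WxH. Calls in either direction were 3154 and 3388 of 14653 genes. Of 14 genes of fatty acid and triglyceride synthesis, 9 were higher at 30 than at 3 months in PxH and 10 in WxH, and 0 were lower in either. THRSP, a lipogenic nuclear protein, rose by 1.95 (adjusted p = 0.00193) in PxH and 3.12 (adjusted p = 3.62e-05) in WxH. DGAT2, which makes the final step to triglyceride, rose by 1.49 (adjusted p = 0.0118) and 1.83 (adjusted p = 0.00561), and AGPAT2, an acyltransferase of triglyceride synthesis, by 1.24 (adjusted p = 2.66e-05) and 1.86 (adjusted p = 4.54e-05). Of 10 genes of the droplet coat and lipolysis, 3 were higher and 1 lower in PxH and 7 were higher in WxH. G0S2, an inhibitor of triglyceride lipase, rose by 1.42 and 2.35 (adjusted p = 0.00774 and 0.000691). PLIN2, a droplet coat protein of many cell types, rose by 2.15 and LIPE, hormone-sensitive lipase, by 1.27 in WxH (adjusted p = 0.0238 and 0.00228).

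Of 14 further secreted and membrane proteins of adipocytes, 4 were higher in PxH, and 7 were higher and 1 lower in WxH. TUSC5, which aids traffic of the insulin-responsive glucose transporter, rose by 2.58 (adjusted p = 0.000268) and 3.56 (adjusted p = 6.48e-05). ADIG, which promotes fat cell differentiation, rose by 1.34 and 2.02 (adjusted p = 0.00176 and 0.000434). The lower gene in WxH, named because it was the sole one, was that transporter, SLC2A4 (−0.92, adjusted p = 0.000117), which is also abundant in muscle fibres. Of 4 partners of LPL on the list, 2 rose in both crosses, APOE by 1.02 and 1.13 (adjusted p = 0.000402 and 0.00595) and LMF1, the lipase maturation factor, by 0.54 and 0.46 (adjusted p = 0.00736 and 0.00613). Of 13 adipogenic regulators, 4 were higher and 4 lower in PxH, and 4 were higher and 2 lower in WxH. ZNF423, a factor of preadipocyte commitment, rose by 1.01 and 1.26 (adjusted p = 6.59e-05 and 6.48e-05). PPARGC1A, a coactivator of mitochondrial genes, fell by 1.80 and 0.87 (adjusted p = 7.1e-05 and 0.00966). Of 8 genes of precursors and inhibitors of adipogenesis, 0 changed in PxH by limma and 1, KLF2, was lower in WxH.

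Markers of other cells were read beside this rise. Of 7 muscle fibre genes 0 changed in PxH and 2 were higher in WxH at 30 months, and their summed level was 19.34 to 19.83 at 30 and 19.48 to 19.85 at 3 months. Of 5 fibroblast genes 2 were lower in each cross, COL1A1 and COL3A1, with summed levels of 13.56 to 14.80 at 30 and 14.95 to 15.60 at 3 months. Of 5 endothelial genes 3 were lower in each cross, with summed levels of 12.42 to 13.29 and 12.77 to 13.34. Of 4 macrophage and leukocyte genes 0 changed in PxH and 1 was lower in WxH. The part of these shifts in the result was not tested.

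The 10 genes whose 12 post-natal condition means were most like the mean profile of the members were ADIG (r = 0.98), TRARG1 (the current symbol of TUSC5), ACRP30, CLU, CB439323, S100G, THRSP, RBP4, LOC616345 and BE237096, the last with r = 0.97. This is a ranking over 12 means from the same animals.

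The diet arrays asked whether the same markers differed between restricted and growth cattle. At time 0, limma called 0 of the 8 members and 3.55% of all genes (0 members and 2552 genes at an unadjusted p under 0.05). At time 1 it called 0 of 8 members and 18.4% of all genes, with 2 members, ADIPOQ and LPL, at an unadjusted p under 0.05. At time 2 it called 0 of 8 and 0% of all genes (0 members and 223 genes at an unadjusted p under 0.05). The median difference of the 8 genes at time 1, restricted minus growth, was −1.02, against 0.00 over all genes.

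At time 1, ADIPOQ was at 6.48, 7.44 and 7.35 in the restricted animals RL27, RL24 and RL671 and at 7.17, 9.37, 9.56 and 7.52 in the growth animals RG166, RG604, RG157 and RG208. The growth animals fell into a lower and a higher pair, and the groups overlapped. Its difference was −1.37 (95% interval −2.64 to −0.10, adjusted p = 0.124). CIDEC was at 6.86, 9.53 and 8.41 against 8.30, 11.68, 11.61 and 9.64, overlapping, with a difference of −2.04 (−4.31 to 0.22, adjusted p = 0.199). PLIN was at 6.89, 7.94 and 7.28 against 7.94, 9.41, 9.28 and 8.03, where RL24 all but reached the lowest growth animal. Its difference was −1.27 (−2.60 to 0.07, adjusted p = 0.176).

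LPL was at 10.93, 11.74 and 8.28 in the restricted animals RL27, RL24 and RL671 and at 12.17, 12.00, 11.51 and 11.85 in the growth animals. RL671 was far below the rest and RL24 was within the growth range, and the difference was −1.51 (−2.80 to −0.23, adjusted p = 0.0951). CIDEA was at 10.94, 9.21 and 10.80 against 9.54, 9.52, 9.83 and 9.81. RL27 and RL671 were above, and RL24 below, all growth animals, with a difference of 0.60 (−0.03 to 1.23, adjusted p = 0.177). FABP4 (−0.78, adjusted p = 0.626), PPARG (−0.26, adjusted p = 0.386) and CEBPA (−0.50, adjusted p = 0.202) did not pass either.

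The calls at time 1 depended on RL24, and the sizes on single animals. Without RL24, CIDEA was higher by 1.23 (adjusted p = 0.00169), CIDEC lower (−3.43, adjusted p = 0.0405) and LPL lower (−2.47, adjusted p = 0.0207) in the remaining 2 restricted animals. Leaving out 1 animal in turn, LPL differed by −2.47 to −0.54 (limma, adjusted p = 0.0207 to 0.42). CIDEC then differed by −3.43 to −1.28 (adjusted p = 0.0405 to 0.574) and CIDEA by 0.29 to 1.23 (adjusted p = 0.00169 to 0.612). With that time fitted alone, CEBPA passed (−0.54, adjusted p = 0.0296). RL24 also differed at time 0, when its CIDEC was at 9.05 and the other 3 restricted animals were at 11.38 to 11.84. Growth and restricted animals shared each array, whereas each time was on slides of its own, so time and slide cannot be told apart.

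Changes over time were compared between the arms. For the change from time 0 to 1, limma called 0 of 8 members and 10.4% of all genes, with 1 member, PLIN, at an unadjusted p under 0.05. The PLIN change was −1.70 in the restricted relative to the growth arm (95% interval −3.39 to −0.01, adjusted p = 0.188). For the change from time 1 to 2 it called 0 of 8 and 1.89% of all genes, with 1 member, CIDEA, at an unadjusted p under 0.05 (−1.07, adjusted p = 0.249). Without RL24, CIDEA alone passed in each (0.95, adjusted p = 0.0298, and −1.63, adjusted p = 0.0318). At time 2, with 2 animals in each arm, CIDEC was at 9.43 and 8.85 in restricted and 8.65 and 10.86 in growth animals.

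Other markers moved with diet at time 1. The summed muscle fibre level was 18.80 to 19.10 in the restricted and 19.96 to 20.77 in the growth animals, and 6 of 7 genes were lower and 1 higher. ACTA1 differed by −6.05 (adjusted p = 8.12e-09). The summed fibroblast level was 11.90 to 12.53 against 14.98 to 16.34, with 3 of 5 genes lower, and 3 of 5 endothelial genes were lower. The part of these shifts in the adipocyte marker values was not tested. The counts of the fat metabolism lists stand beside the 18.4% of all genes called at that time. Of 10 genes of the droplet coat and lipolysis 1 was lower, of 14 secreted and membrane proteins 1 was higher and 1 lower, and of 8 precursor and inhibitor genes 1 was lower. Of 14 synthesis genes 2 were higher and 1 lower, GPD1 (glycerol phosphate dehydrogenase) by −1.75 (adjusted p = 0.000799). Of 4 LPL partners 2 were lower, ANGPTL4, an inhibitor of LPL, by −1.45 (adjusted p = 0.0161) and APOE by −0.93 (adjusted p = 0.0345). Of 13 adipogenic regulators 3 were higher, CEBPD by 1.91 (adjusted p = 0.022), STAT5A by 1.11 (adjusted p = 0.00117) and NR1H3 by 0.61 (adjusted p = 0.0101).

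**Figure D5:**
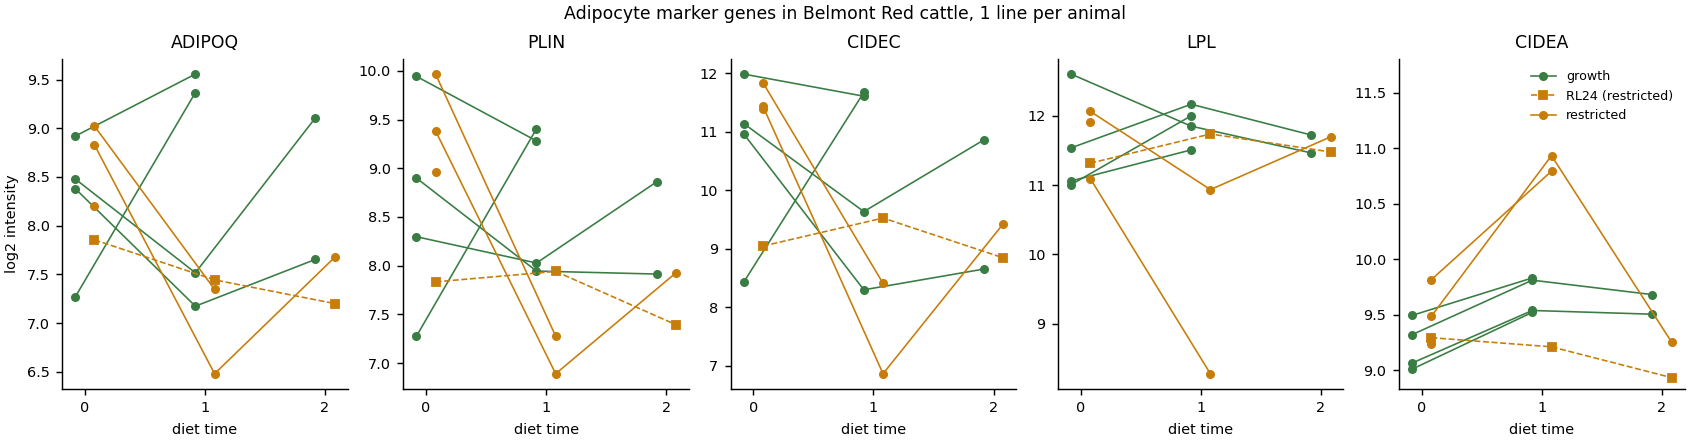
Log2 intensity of ADIPOQ, PLIN, CIDEC, LPL and CIDEA in Belmont Red cattle at diet times 0, 1 and 2, with 1 line per animal in the growth (green) and restricted (orange) arms and RL24 dashed with squares. At time 1, CIDEA is at 10.94 and 10.80 in RL27 and RL671 and at 9.21 in RL24, and the restricted and growth animals overlap in ADIPOQ, CIDEC and LPL.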

How the data were processed

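The members, and the gene lists set beside them, were chosen with earlier results of these data known. The authors amplified, labelled and hybridised total RNA of muscle biopsies to two-colour Agilent arrays, and Agilent Feature Extraction 9.5.1 is named in the submitters' processing notes. For each spot and dye the deposited files hold mean and background intensity, which were used here, and flags. The deposited log10 ratios of Cy5 over Cy3 were used as an alternative. Condition, animal and dye of each channel came from the labels, and the 2 conditions of an array were hybridised with dyes swapped between arrays.

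Intensities were corrected with normexp (offset 50), normalized by loess within and Aquantile between arrays, averaged over the spots of a probe (2 for each member) and over the probes of a gene. A probe was kept when at least 1 of its spots was well above background in 24 of 96 channels, which left 15822 of 21475 probes, 15737 of them complete, and 14653 genes. RefSeq names of the ARS-UCD2.0 table matched 16738 probes, and no coordinates were used. Where no value of a group was well above background, the fold between group means is a bound. It is set by the lowest intensity above background on the same arrays, or by the measured level where that was higher.

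Tests were limma 3.58.1 fits in R 4.3.3, with the package data.table in version 1.17.8, over all genes, and p-values were adjusted by the Benjamini-Hochberg method and called below 0.05. Arrays of the same animal and age were averaged. Fits held the dye. The fetal and newborn comparisons used 1 fit over both crosses, and the age comparisons a fit per cross with the animal as a fixed block, because the labels name the same animals at several ages. The crosses were compared by 1 mean deviation per animal, and at 30 months and for changes by within-array differences with the pair of animals as a random block. The diet comparisons used 1 fit over the 6 groups with the animal as a random block. Every member is named. Of each list at most 4 genes are named, from those with the largest change among genes that passed in the comparison, besides the 10 genes most like the members. The scripts were tested on simulated data. Precision is limited by the number of animals, and nothing in the labels says how animals were related. Alternatives changed background correction, normalization, filter, block and animals.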

Additional observations from a re-analysis of the deposited data

Results flagged for a closer look

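Each of the following is an animal far from the other 3 of its group, measured by its gap to the nearest of them as a share of the group's range. Of 140 groups of 4 animals examined, 9 held such an animal, and chance alone gives about 1 in 20. WxH animal GW179 at 30 months was the highest in 3 of them, with a share of 0.99 for PPARG (10.71, the next at 8.61), 0.879 for CIDEC (15.84, the next at 13.01) and 0.844 for ADIPOQ (11.22, the next at 8.82). Restricted animal RL24 was the lowest for CIDEC at diet time 0, with a share of 0.836 (9.05, the next at 11.38). WxH animal GW212 was the lowest for CEBPA A_73_117799 at 3 months, with a share of 0.856 (9.69, the next at 10.12). PxH animal GP130 was the highest for LPL at 12 months, with a share of 0.832 (13.16, the next at 11.61), and GP273 at 7 months, with a share of 0.831 (12.61, the next at 12.33). LEP, near background throughout, gave 0.908 for PxH animal GP201 at 30 months (7.04, the next at 6.91) and 0.871 for WxH animal GW169 at 7 months (6.86, the next at 6.80).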

How the results depend on the processing

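For single genes, 1540 of 1608 results under an alternative kept their direction and side of the threshold, 51 no longer passed, 16 newly passed and 1 reversed, CEBPA at birth against 135 days in PxH alone without GP672 (0.47, adjusted p = 0.073). For the number of the 8 genes called, 182 of 201 values stayed within 1.5 times the main one. Leaving out an animal in turn, the count was 1 to 2 for 20 against 3 months in PxH (main 2), 2 to 6 for 30 against 3 months in PxH (main 6), 2 to 4 for 20 against 3 months in WxH (main 4) and 0 to 1 for the diet change from time 0 to 1 and from time 1 to 2 (main 0), the 1 without RL24 in both. It was 0 to 3 for diet time 1, the 3 without RL24, beside 2462 of all genes. That time fitted alone gave 1 for diet time 1, beside 1922 of all genes. Without the replicate block, the paired animals being treated as unpaired, the count was 1 for PxH and 2 for WxH at 20 months. With the crosses paired by array, the arrays not being independent by animal, the crosses after birth gave 1 (CIDEA 0.42, adjusted p = 0.0415). From birth to 3 months WxH alone gave 2 and background subtraction 1, beside 3711 and 6575 of all 14653 genes. For birth against 135 days PxH alone gave 4, or 2 without GP672, beside 8413 and 7781 of all genes. Slide as a block gave 3, or 7 without GP672 (main 7), beside 10461 and 10750 of all genes. GP041A and GP041B as 1 animal gave 6, CEBPA no longer passing (adjusted p = 0.0508). The slide as a fixed or random block, the settings without GP672 and the merging of these codes were chosen after seeing the data. Over all genes, calls at 20 against 3 months were 1776 in PxH and 558 without GP130, and 1747 in WxH and 453 without GW212. At 30 months they were 3154 and 1455 without GP130, and 3388 and 1529 without GW169. Without the replicate block they were 995 and 974 at 20 months and 2002 in PxH at 30 months. For diet they were 520 at time 0 and 68 with that time alone, 2693 at time 1 and 1417 without RL27, 1524 for the first change and 501 without RG166, and 277 for the second and 7 without RG166. The crosses after birth gave 0, and 510 when paired by array. The crosses at 30 months gave 5 and 0 to 14, their change from 3 to 20 months 2 and 0, and 3 months against birth 6375 and 3107 in PxH alone. The cause was not tested. ADIPOQ and LEP near background, 2 to 4 animals in the other groups and 1 animal per cross at 60 days limit what could be seen.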

Other observations

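Markers of brown adipocytes, the heat-producing kind of fat cell, were read as well. Of the 3 listed, 2 had a probe named by their symbol and 1, DIO2 (type 2 deiodinase, which activates thyroid hormone), passed the filter. UCP1, the uncoupling protein that defines brown fat, was well above background in 13 of 96 channels. These were 2 of 3 channels in each cross at 60 days of gestation, 2 of 3 in PxH at 135 days (1 of them GP672), 1 of 3 in each cross at birth, 2 of 4 in each cross at 7 months and 1 of 4 in WxH at 20 months. The highest UCP1 levels of an animal were 7.83 in a WxH calf at birth, 7.64 in GP672 at 135 days, where the other 4 fetuses were at 6.66 to 6.84, and 7.39 in PxH at 7 months. At 25 and 30 months the UCP1 probe was above background in 0 of 4 channels of either cross.

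DIO2 fell between 3 and 30 months, by 0.39 in PxH (adjusted p = 0.0463) and by 0.57 in WxH (adjusted p = 0.00307).

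The ACRP30 probe, which the naming rule did not take, starts ctcaaggatctgttgtgtagtggtaatgga and is 40% G and C. It was at 6.59 and 6.63 in the PxH and WxH fetus of 60 days, at 12.71 in GP672, and at 7.41 to 8.82 in the other 4 fetuses of 135 days. In the calves at birth it was at 6.64 to 7.57, so that the highest calf was above the lowest fetus of 135 days.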
